A study of Mus musculus with 9 samples.

Results

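The genes described are 9 chemokine genes, Ccl1, Ccl3, Ccl4, Ccl5, Ccl9, Ccl20, Cxcl3, Cxcl10 and Xcl1, measured on arrays of mouse T cells cultured under Th17-inducing conditions. They were taken by gene symbol, each had 1 probe set (the group of probes that reads 1 transcript), and all 9 were found among 22180 named genes. The cultures came from SRG3 cKO mice (SRG3-deficient, conditional knockout), RORγt KO mice (RORγt-deficient) and wild-type (WT) mice; each genotype had 3 of the 9 arrays. SRG3 is the protein of Smarcc1 and belongs to the Swi/Snf complex, which remodels chromatin. RORγt is the nuclear receptor on which Th17 differentiation depends. The Cre driver of the conditional deletion, the kind of RORγt mutation and the strain, age and number of mice are not given in the sources used here. In all 3 groups naive CD4+CD25-CD44lowCD62Lhigh T cells sorted from spleen were cultured for 60 h on plate-bound anti-CD3 and anti-CD28 (10 µg/ml each) with TGF-β1 (1 ng/ml), IL-6 (30 µg/ml as the labels write it), anti-IL-4 and anti-IFN-γ (2 µg/ml each). IFN-γ and IL-4 were thus blocked in every group.

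Chemokines are small secreted proteins that guide migrating leukocytes through G-protein-coupled receptors, and they are classed as CC, CXC or XC by the spacing of the cysteines near their amino terminus. Activated T cells secrete the CC chemokines CCL3, CCL4 and CCL5 and the XCR1 ligand XCL1, which recruit macrophages, dendritic cells and other T cells. Th17 cells are known for CCL20, the ligand of their own receptor CCR6, and IL-17 is known for inducing neutrophil-attracting CXC chemokines in other cells.

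All values are log2 probe set intensities, on which a difference of 1 is a doubling. The arrays had medians of 7.12 to 7.14, and over all values the lower quartile was 6.12 and the upper quartile 8.23. On principal component 1, which held 28.8% of the variance, each genotype had 1 array apart from its other 2: the scores were 3.98, -3.27 and -2.06 for SRG3 cKO arrays 1 to 3, 9.82, 11.97 and 3.22 for RORγt KO arrays and -1.38, -10.5 and -11.8 for WT arrays. Smarcc1 was 8.47, 8.79 and 8.62 in SRG3 cKO cells, 10.12, 10.04 and 10.19 in RORγt KO cells and 10.13, 10.32 and 10.40 in WT cells, so it was lowest in the arrays labelled SRG3 cKO; whether its probes lie in the deleted part was not analysed here. Of 9 CD4 T cell and Th17 markers, all lay above the median of the probe sets, and Il17a, Il17f and Il23r fell in SRG3 cKO against WT cells. In RORγt KO against WT cells these 3 genes, Ccr6 and Il1r1 fell, and the same 5 were higher in SRG3 cKO than in RORγt KO cells. The words rose, fell, higher and lower are used as calls only for a limma adjusted p of at most 0.05, adjusted over the 22180 genes. The labels call the arrays biological replicates and name no mice, so the p-values reflect array-to-array spread only. Also, in these bulk samples fewer producing cells cannot be told apart from less RNA per cell.

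Ccl3 was the chemokine with the largest difference in SRG3 cKO cells, and Cxcl3 was the one with the largest difference in RORγt KO cells, each among these 9 genes. Ccl3 fell 1.99-fold in SRG3 cKO against WT cells and did not fall in RORγt KO cells. Cxcl3 fell 1.88-fold in RORγt KO against WT cells and did not fall in SRG3 cKO cells. In the direct test of SRG3 cKO against RORγt KO cells, Ccl3, Ccl4 and Ccl5 were lower and Cxcl3 was higher. Ccl1, Ccl9, Ccl20, Cxcl10 and Xcl1 passed in none of the 3 comparisons.

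**Figure D1:**
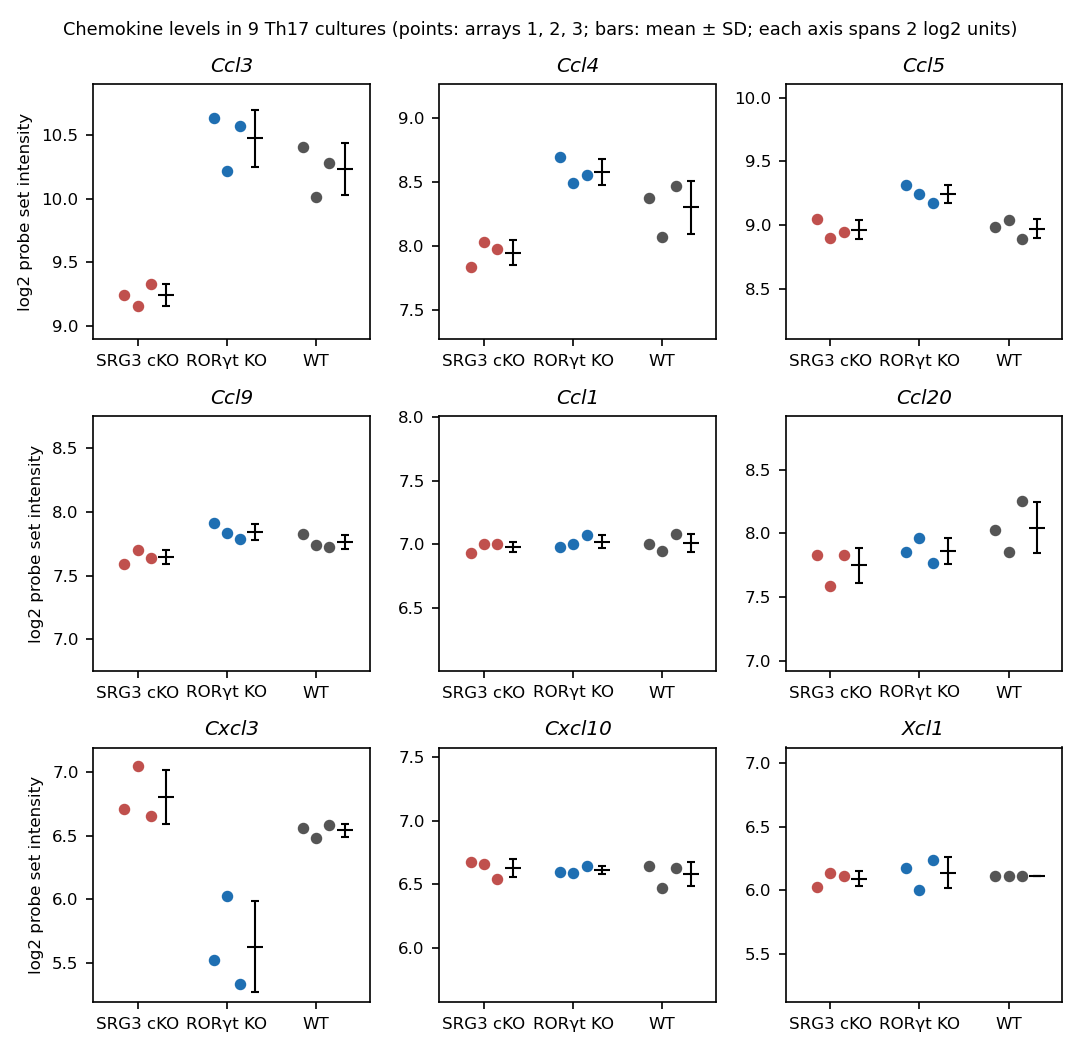
Log2 probe set intensity (y axis, a window of 2 log2 units in every panel) of the 9 chemokine genes by genotype (x axis); points are arrays 1, 2 and 3 from left to right and bars the mean ± SD (n = 3). The SRG3 cKO points of Ccl3 and the RORγt KO points of Cxcl3 lie below all points of the other genotypes.

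Upstream sequences of 4 genes are shown: those of Ccl3 and Cxcl3, which had the largest changes, and for contrast those of a CC gene and a CXC gene that did not pass, Ccl9 and Cxcl10. They are the 250 bases before the annotated start of each gene in a table of RefSeq promoters of GRCm38.p6, which held 7 of the 9 genes (all but Ccl4 and Ccl5). Capitals mark matches on either strand to GGG, any 3 bases and TTCC (a κB-type site), to TGANTCA (AP-1), to AGGTCA (the core motif read by ROR and other nuclear receptors) and to GAAA, any 2 bases and GAAA (the interferon-stimulated response element), and no match of one overlapped a match of another.
Ccl3, chr11:83649379-83649628, minus strand: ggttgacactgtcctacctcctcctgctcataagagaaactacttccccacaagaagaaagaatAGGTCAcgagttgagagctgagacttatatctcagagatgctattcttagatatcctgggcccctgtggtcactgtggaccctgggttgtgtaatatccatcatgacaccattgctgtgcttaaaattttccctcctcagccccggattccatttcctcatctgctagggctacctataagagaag
Ccl9, chr11:83578637-83578886, minus strand: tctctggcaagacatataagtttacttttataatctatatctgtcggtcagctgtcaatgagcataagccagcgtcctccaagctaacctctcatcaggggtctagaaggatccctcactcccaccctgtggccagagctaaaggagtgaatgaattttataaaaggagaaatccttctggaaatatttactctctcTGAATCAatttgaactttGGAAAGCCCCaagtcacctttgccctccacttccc
Cxcl3, chr5:90785851-90786100, plus strand: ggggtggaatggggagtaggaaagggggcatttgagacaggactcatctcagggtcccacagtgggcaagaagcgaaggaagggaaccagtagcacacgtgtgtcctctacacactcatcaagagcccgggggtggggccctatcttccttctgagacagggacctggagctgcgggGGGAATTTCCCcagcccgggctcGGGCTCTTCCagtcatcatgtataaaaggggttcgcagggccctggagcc
Cxcl10, chr5:92348890-92349139, minus strand: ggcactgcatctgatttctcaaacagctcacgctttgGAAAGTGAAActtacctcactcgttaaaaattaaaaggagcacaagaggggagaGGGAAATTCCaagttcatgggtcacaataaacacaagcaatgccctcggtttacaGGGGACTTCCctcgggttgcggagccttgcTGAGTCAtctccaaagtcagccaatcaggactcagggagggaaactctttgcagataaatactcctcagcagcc

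The Ccl3 window held 1 AGGTCA, starting 186 bases before the gene, and no κB-type or AP-1 match. The Cxcl3 window held 3 κB-type matches, 2 of which overlap (they start 73 and 72 bases before the gene, on opposite strands), and no AGGTCA. The Ccl9 window held 1 κB-type and 1 AP-1 match, and the Cxcl10 window 2 κB-type, 1 AP-1 and 1 interferon-response match. Among the windows not shown, Ccl1 had 2 κB-type matches, Ccl20 had 1 κB-type and 1 AGGTCA match, and Xcl1 had none. Of 32851 windows of the same length in the table, 4.65% held the κB-type letters, 6.75% the AP-1 letters, 14.02% AGGTCA and 2.98% the interferon-response letters. The matches describe letters in these windows, and binding was not measured.

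Ccl3 and Ccl4 encode MIP-1α and MIP-1β, CC chemokines of activated T cells and macrophages, and CCL3 acts on CCR1. Ccl3 was 9.24, 9.16 and 9.33 in SRG3 cKO cells, 10.63, 10.22 and 10.57 in RORγt KO cells and 10.41, 10.01 and 10.28 in WT cells. Every SRG3 cKO array lay below every other array, while RORγt KO and WT arrays overlapped. Ccl3 fell in SRG3 cKO against WT cells (log2 change -0.99, SE 0.12, 95% interval -1.26 to -0.72, limma adjusted p = 0.0128), a size at the 99.97th percentile of all genes' absolute changes. It was at 0.24 in RORγt KO against WT cells (-0.03 to 0.51, adjusted p = 0.461). The direct test gave a 2.35-fold lower level in SRG3 cKO than in RORγt KO cells (-1.23, SE 0.12, adjusted p = 0.00128). This difference passed in each of the 18 alternative settings. The difference from WT did not pass without SRG3 cKO array 1, 2 or 3 (adjusted p = 0.0747, 0.053 and 0.0613) or WT array 3 (0.0748), or in a fit of only the 6 arrays compared (0.0513), with log2 changes of -1.10 to -0.90 over all settings.

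Ccl4 followed the same order of genotypes, with smaller differences than Ccl3 between SRG3 cKO cells and each other genotype. Between RORγt KO and WT cells its difference was not smaller (0.28 for Ccl4 and 0.24 for Ccl3). It was 7.84, 8.03 and 7.98 in SRG3 cKO cells, 8.70, 8.49 and 8.56 in RORγt KO cells and 8.37, 8.07 and 8.47 in WT cells. The 3 groups did not overlap, although WT array 2 lay close to the highest SRG3 cKO array. Ccl4 was at -0.35 in SRG3 cKO against WT cells (-0.58 to -0.13, adjusted p = 0.221) and at 0.28 in RORγt KO against WT cells (0.05 to 0.50, adjusted p = 0.288), neither of which passed. Between SRG3 cKO and RORγt KO cells it was 1.55-fold lower in SRG3 cKO cells (-0.63, SE 0.10, limma adjusted p = 0.0164). That call was lost without SRG3 cKO array 1 (0.073) or 3 (0.0657) and without RORγt KO array 1 (0.0785) or 3 (0.0553), and in the block fit of 6 arrays (0.0576). In the RefSeq table the spans of Ccl3 and Ccl4 overlap, and which probes read each gene was not analysed here.

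Ccl5 encodes RANTES, a CC chemokine that T cells make late after activation, and Ccl9 encodes a CC chemokine of myeloid cells in mice that acts on CCR1. Ccl5 was 9.05, 8.90 and 8.95 in SRG3 cKO cells, 9.31, 9.25 and 9.18 in RORγt KO cells and 8.98, 9.04 and 8.90 in WT cells. The RORγt KO arrays lay above all others, and SRG3 cKO and WT arrays overlapped. Ccl5 was at -0.01 in SRG3 cKO against WT cells (-0.14 to 0.12, adjusted p = 0.969) and at 0.27 in RORγt KO against WT cells (0.15 to 0.40, adjusted p = 0.0652). The direct test was at the threshold, 1.22-fold lower in SRG3 cKO than in RORγt KO cells (-0.28, SE 0.06, limma adjusted p = 0.0498), and this call was lost whichever of the 9 arrays was left out (adjusted p = 0.0545 to 0.182), with the array medians subtracted (0.0648) and in fits of only the 6 arrays compared without (0.1) and with the replicate block (0.0875). Ccl9 was 7.59, 7.70 and 7.64 in SRG3 cKO cells, 7.91, 7.83 and 7.79 in RORγt KO cells and 7.82, 7.74 and 7.73 in WT cells. Its SRG3 cKO arrays lay below the others without passing, at -0.12 against WT (-0.23 to -0.01, adjusted p = 0.396) and -0.20 against RORγt KO cells (-0.31 to -0.09, adjusted p = 0.107). RORγt KO and WT arrays of Ccl9 overlapped (0.08, adjusted p = 0.548).

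Ccl5, Ccl9, Ccl6, Ccl3 and Ccl4 stand in this order among the chemokine genes of 1 stretch of chromosome 11. Ccl6, a myeloid CC chemokine gene in the middle of it, had nearly equal means in the genotypes, 5.79 in SRG3 cKO, 5.80 in RORγt KO and 5.79 in WT cells, a level below the lower quartile of the array. In the direct comparison the log2 changes along this stretch were -0.28 for Ccl5, -0.20 for Ccl9, -0.01 for Ccl6, -1.23 for Ccl3 and -0.63 for Ccl4. A separate stretch of the same chromosome holds Ccl2, Ccl7, Ccl11, Ccl12, Ccl8 and Ccl1, and none of these passed in any comparison.

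**Figure D2:**
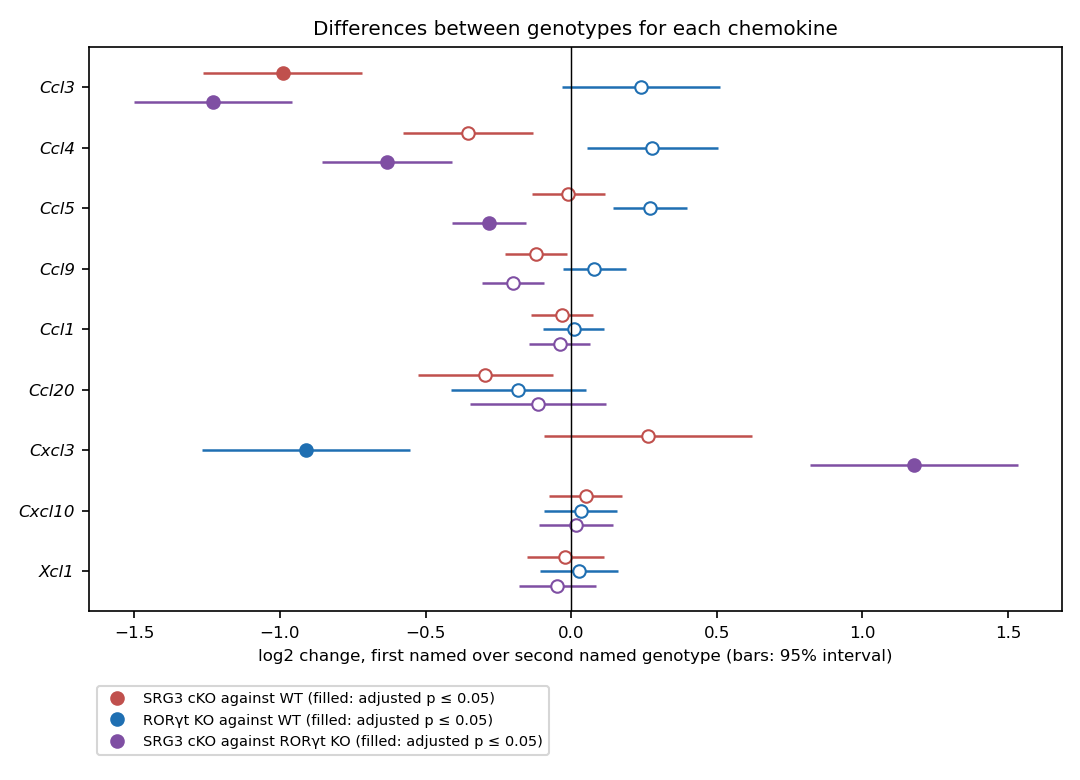
Log2 change (x axis) of each chemokine gene (y axis) in SRG3 cKO against WT, RORγt KO against WT and SRG3 cKO against RORγt KO cells, with 95% intervals; filled points have a limma adjusted p of at most 0.05. The filled points are Ccl3 at -0.99 against WT, Cxcl3 at -0.91 in RORγt KO against WT, and Ccl3, Ccl4, Ccl5 and Cxcl3 in the direct comparison.

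Cxcl3 encodes a CXC chemokine that draws neutrophils through CXCR2. It was 6.71, 7.05 and 6.66 in SRG3 cKO cells, 5.52, 6.03 and 5.34 in RORγt KO cells and 6.56, 6.49 and 6.58 in WT cells. The RORγt KO arrays lay below all others and below the lower quartile of the array (6.12), and the SRG3 cKO arrays lay just above the WT arrays. Cxcl3 fell in RORγt KO against WT cells (-0.91, SE 0.16, 95% interval -1.27 to -0.56, limma adjusted p = 0.0331). It was at 0.26 in SRG3 cKO against WT cells (-0.09 to 0.62, adjusted p = 0.584). The direct test gave a 2.26-fold higher level in SRG3 cKO than in RORγt KO cells (1.18, SE 0.16, adjusted p = 0.00763), which passed whichever array was left out but not in a fit of only those 6 arrays (0.0598). The call against WT was lost without RORγt KO array 1 (0.137) or 3 (0.0698), WT array 1 (0.0626), 2 (0.13) or 3 (0.132), or SRG3 cKO array 1 (0.0599) or 3 (0.0617), and in fits of only the 6 arrays compared without (0.12) and with the replicate block (0.121).

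The genes beside Cxcl3 on chromosome 5, Pf4 and Cxcl15, and the related CXCR2 ligand genes Cxcl1 and Cxcl2 further along did not pass in any comparison. In RORγt KO against WT cells Cxcl1 was at 0.07, Cxcl2 at -0.0070 and Cxcl5, a further CXCR2 ligand gene of this cluster, at -0.13 (adjusted p = 0.501). The values in SRG3 cKO against WT cells were 0.06 for Cxcl1, 0.06 for Cxcl2 and -0.05 for Cxcl5 (all chosen after their values were seen). In mean level Pf4, Cxcl5, Cxcl1 and Cxcl15 lay at the 29.9th, 31.2nd, 45.5th and 48.8th percentiles of the probe sets, Cxcl2 at the 62.7th and Cxcl3 itself at the 29.1st. Whether the dim genes had signal over background was not tested. The receptor gene Cxcr2 was at -0.05 in SRG3 cKO and 0.06 in RORγt KO cells against WT, and neither passed.

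Ccl20 encodes the CCR6 ligand by which Th17 cells and their targets attract CCR6-bearing cells. It was 7.83, 7.59 and 7.83 in SRG3 cKO cells, 7.85, 7.97 and 7.77 in RORγt KO cells and 8.02, 7.85 and 8.25 in WT cells. All SRG3 cKO arrays lay below the lowest WT array by a narrow margin, and RORγt KO arrays overlapped both groups. The log2 change was -0.29 in SRG3 cKO against WT (-0.53 to -0.06, adjusted p = 0.328), -0.18 in RORγt KO against WT (-0.41 to 0.05, adjusted p = 0.521) and -0.11 in SRG3 cKO against RORγt KO cells (-0.35 to 0.12, adjusted p = 0.748). None of these differences passed, and the WT arrays had an SD of 0.20. Its receptor gene Ccr6 did change: it was 8.97, 9.07 and 9.14 in SRG3 cKO cells, 8.44, 8.38 and 8.42 in RORγt KO cells and 9.0, 8.98 and 9.16 in WT cells. Ccr6 fell in RORγt KO against WT cells (-0.63, SE 0.06, limma adjusted p = 0.00135) and was higher in SRG3 cKO than in RORγt KO cells (0.65, adjusted p = 0.000772).

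Ccl1, Cxcl10 and Xcl1 had small differences between the genotypes. Ccl1 encodes the CCR8 ligand of activated T cells, and it averaged 6.98 ± 0.04 in SRG3 cKO, 7.02 ± 0.05 in RORγt KO and 7.01 ± 0.07 in WT cells (SD, n = 3 each), below the median of the array. Cxcl10 encodes IP-10, the interferon-induced ligand of CXCR3, and it averaged 6.63 ± 0.07 in SRG3 cKO, 6.61 ± 0.03 in RORγt KO and 6.58 ± 0.10 in WT cells. Xcl1, the gene for lymphotactin, averaged 6.09 ± 0.06 in SRG3 cKO and 6.14 ± 0.12 in RORγt KO cells, and was 6.11 on every WT array. In mean level Cxcl10 lay at the 35.6th percentile of the probe sets and Xcl1 at the 24.9th, next to the lower quartile. At such levels small differences can also reflect signal near background, which was not tested. The groups overlapped for Ccl1, Cxcl10 and Xcl1 in every comparison, and their 95% intervals all lay between -0.18 and 0.18. Xcl1 had the same deposited value on 4 of the 9 arrays, the WT arrays and SRG3 cKO array 3. Of all probe sets, 46.8% had a value shared by at least 2 arrays and 1.41% had 1 value on all WT arrays, so equal values on several arrays were common in the deposited table.

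Across the 9 genes, 1 fell and none rose in SRG3 cKO against WT cells, where 0.523% of all genes were called (0.28% higher, 0.243% lower). In RORγt KO against WT cells 1 fell and none rose, where 1.04% of all genes were called (0.694% higher, 0.343% lower). In SRG3 cKO against RORγt KO cells 3 were lower and 1 was higher, where 1.28% of all genes were called (0.595% higher, 0.681% lower). Without adjustment, 4, 3 and 5 of the 9 genes had a limma p under 0.05 in these comparisons, as did 11.2%, 12.7% and 11.1% of all genes.

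Counts of arrays that did not overlap included genes that did not pass. In SRG3 cKO against WT cells all SRG3 cKO arrays lay below the WT arrays for 4 genes (Ccl3, Ccl4, Ccl9 and Ccl20), as for 6.56% of all genes, and above them for Cxcl3, as for 7.04%. In RORγt KO against WT cells the RORγt KO arrays lay above the WT arrays for Ccl4 and Ccl5, as for 6.9% of all genes, and below them for Cxcl3, as for 7.35%. In SRG3 cKO against RORγt KO cells the SRG3 cKO arrays lay below for Ccl3, Ccl4, Ccl5 and Ccl9, as for 6.82% of all genes, and above for Cxcl3, as for 7.79%. The median log2 change of the 9 genes was -0.03 in SRG3 cKO against WT, 0.03 in RORγt KO against WT and -0.11 in the direct comparison, and that of all genes was -0.0061, -0.0027 and -0.0012. Both comparisons with WT share the WT arrays. With the array number as a replicate block, 195 genes passed in SRG3 cKO against WT cells in place of 116, and Ccl3 passed with it (adjusted p = 0.00162).

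**Figure D3:**
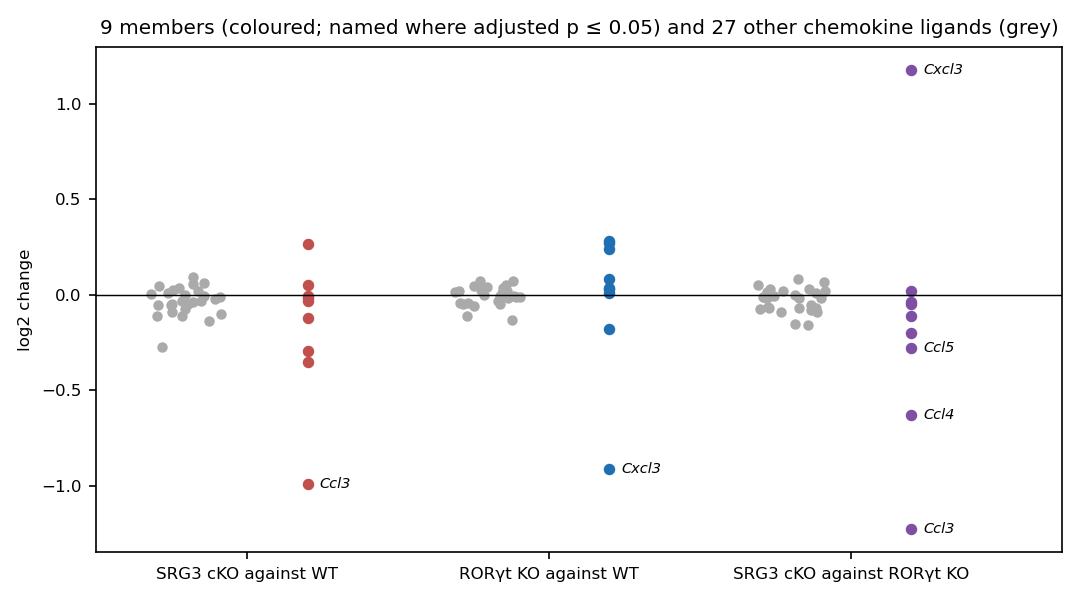
Log2 change (y axis) of the 9 chemokine genes (coloured, named where the limma adjusted p was at most 0.05) and of 27 other chemokine ligand genes (grey) in the 3 comparisons (x axis); each point is 1 gene. No grey point passed, and the grey points run from -0.27 to 0.09 in SRG3 cKO against WT cells.

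None of the other 27 measured chemokine ligand genes passed in any comparison, where 0.523%, 1.04% and 1.28% of all genes were called. At such shares a list of this length would often hold no call. In mean level Ccl22 lay at the 82.2nd percentile of the probe sets, and the other genes of the list lay between the 16.3rd and the 64.3rd. Their median log2 change was -0.03 in SRG3 cKO against WT, 0.00028 in RORγt KO against WT and -0.02 in SRG3 cKO against RORγt KO cells. Ccl2 was at -0.11, Ccl7 at -0.14 and Ccl8 at 0.09 in SRG3 cKO against WT cells, and none of these myeloid-attracting chemokine genes passed. The lowest was Ccl22, for a ligand of the chemokine receptor CCR4, at -0.27 in SRG3 cKO against WT cells (adjusted p = 0.502, chosen after its value was seen).

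Of 22 measured chemokine receptor genes, none passed in SRG3 cKO against WT cells. With 0.523%, 1.04% and 1.28% of all genes called in the 3 comparisons, a list of this length would often hold no call. Ccr7, the lymph node homing receptor gene, rose in RORγt KO against WT cells (0.66, SE 0.13, limma adjusted p = 0.05), and Ccr6 fell. Ccr6 was higher in SRG3 cKO than in RORγt KO cells and Cxcr3, the receptor gene for CXCL10, was lower (-0.30, SE 0.06, adjusted p = 0.0395). Cxcr3 was 7.94, 8.09 and 8.10 in SRG3 cKO cells, 8.29, 8.32 and 8.43 in RORγt KO cells and 8.29, 8.38 and 8.41 in WT cells. The SRG3 cKO arrays lay below all others, with a log2 change of -0.32 against WT that missed the threshold (adjusted p = 0.0525). Ccr8, the receptor gene for CCL1, was at 0.53 in RORγt KO against WT cells (0.29 to 0.76, adjusted p = 0.0524, chosen after its value was seen). Ccr1 was at -0.06 and 0.07, Ccr2 at -0.03 and 0.04, Ccr3 at 0.02 and 0.31 and Ccr4 at 0.09 and 0.12 in SRG3 cKO and in RORγt KO cells against WT, and none of them passed.

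Among 18 measured genes of chemokine receptor signalling, Pik3r5, a regulatory subunit of the PI3-kinase that G proteins activate, rose in SRG3 cKO (0.44, SE 0.07, limma adjusted p = 0.0443) and in RORγt KO cells (0.39, adjusted p = 0.0473) against WT. Rgs16, a brake on G-protein signalling, was higher in SRG3 cKO than in RORγt KO cells (0.39, adjusted p = 0.0177). The G-protein subunit genes Gnai2, Gnai3, Gnb1 and Gng2 did not pass, with log2 changes of -0.07 to 0.11 over both comparisons with WT. The share of all genes called was 0.523%, 1.04% and 1.28% in the 3 comparisons.

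Genes that T cell receptor stimulation induces, as it does Ccl3 and Ccl4, were counted as a further list. Of 22, none passed in SRG3 cKO against WT cells, and in RORγt KO against WT cells Tnf (-0.82, limma adjusted p = 0.00135) and Egr2 (-0.29, adjusted p = 0.0436) fell. Of all genes, 0.523%, 1.04% and 1.28% were called in the 3 comparisons. A list of this length would thus often hold no call, and none called does not show the list unchanged. Tnf (0.86), Il2 (0.81), Tnfaip3 (0.43) and Egr2 (0.31) were higher in SRG3 cKO than in RORγt KO cells and none was lower, while Ccl3, Ccl4 and Ccl5 were lower there. Tnf was 11.01, 11.13 and 11.10 in SRG3 cKO cells, 10.23, 10.06 and 10.38 in RORγt KO cells and 10.97, 11.08 and 11.08 in WT cells. The list's median log2 change was 0.09 in SRG3 cKO and -0.04 in RORγt KO cells against WT.

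Of 10 cytotoxic and inflammatory genes that T cells often express with Ccl3, Ccl4 and Ccl5, none passed in SRG3 cKO against WT cells. With 0.523%, 1.04% and 1.28% of all genes called in the 3 comparisons, a list this short would often hold no call. The granzyme B gene Gzmb (0.77, limma adjusted p = 0.05) and the cytotoxic granule gene Nkg7 (0.48, adjusted p = 0.0187) rose and Crtam fell (-0.62, adjusted p = 0.025) in RORγt KO against WT cells. Gzmb (-0.96, adjusted p = 0.0148) and Nkg7 (-0.66, adjusted p = 0.0023) were lower in SRG3 cKO than in RORγt KO cells. Gzma, Gzmc, Prf1 and Ifng did not pass, at -0.03, 0.03, -0.18 and 0.03 in SRG3 cKO against WT cells. The median log2 change of these 10 cytotoxic and inflammatory genes was -0.14 in SRG3 cKO and 0.04 in RORγt KO cells against WT. In the direct comparison it was -0.12. That of all genes was -0.0061, -0.0027 and -0.0012. Of 10 measured interferon-induced genes, Gbp3 rose in RORγt KO against WT cells (0.48, adjusted p = 0.0318) and was lower in SRG3 cKO than in RORγt KO cells (-0.49, adjusted p = 0.0215), while Irf1, Irf7, Irf8 and Irf9 did not pass.

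Macrophages and other myeloid cells also make CCL3, CCL4, CCL9 and CXCL3, and markers of other cells were set beside these results. None of 10 myeloid markers passed in any comparison, and 8 of the 10 lay below the median of the probe sets. Their mean log2 level was 6.83 to 6.88 in SRG3 cKO, 6.85 to 6.95 in RORγt KO and 6.83 to 6.86 in WT cells. Of 8 neutrophil markers, Ly6g alone passed, higher in RORγt KO than in WT (0.58, limma adjusted p = 0.0425) and lower in SRG3 cKO than in RORγt KO cells (-0.63, adjusted p = 0.0235), at levels of 5.83 in SRG3 cKO, 6.46 in RORγt KO and 5.88 in WT cells near the lower quartile of the array. The mean level of the neutrophil list was 6.17 to 6.23 in SRG3 cKO, 6.28 to 6.30 in RORγt KO and 6.19 to 6.28 in WT cells. None of 6 dendritic cell, 6 B cell, 5 CD8 T, NK and γδ T cell or 6 stromal and endothelial markers passed. Of these lists 3, 1, 3 and 2 markers lay below the median of the probe sets, and the rest lay above it. Only 0.523%, 1.04% and 1.28% of all genes were called in the 3 comparisons. Lists this short with no call therefore do not show that such cells were absent or equal between genotypes. The part of such cells in the chemokine results was not tested.

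**Figure D4:**
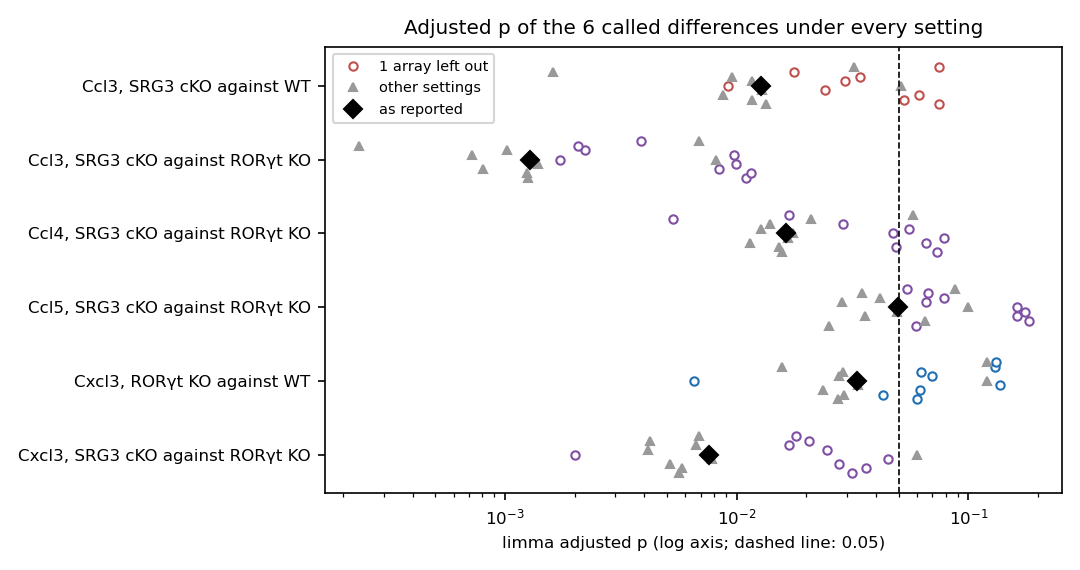
Limma adjusted p (x axis, log scale, dashed line at 0.05) of the 6 called chemokine differences (y axis) as reported (diamonds), with 1 array left out (circles) and under the other settings (triangles). All points of Ccl3 in SRG3 cKO against RORγt KO cells lie left of the line, and all 9 circles of Ccl5 lie right of it.

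The 6 called differences passed in unequal numbers of the 18 alternative settings. Ccl3 in SRG3 cKO against RORγt KO cells passed in 18 and Cxcl3 in the same comparison in 17. Ccl3 in SRG3 cKO against WT and Ccl4 in SRG3 cKO against RORγt KO cells each passed in 13. Cxcl3 in RORγt KO against WT cells passed in 9 and Ccl5 in SRG3 cKO against RORγt KO cells in 6. Calls of genes outside the 9 were not followed through these settings. This includes calls close to the threshold, such as those of Gzmb, Ccr7, Pik3r5 and Egr2 against WT.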

How the data were processed

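RNA of 9 cultures, 3 per genotype, was labelled with biotin for GeneChip arrays, per the labels' protocols. The deposited values are log2 intensities, 1 for each of 41345 probe sets. The sources used here do not give the background correction, summarization or normalization. A single gene symbol was paired with 23521 probe sets, several symbols with 1814 and no symbol with 16010; the first kind was used, with symbols updated by gene ID (23328 matched) through the RefSeq table of GRCm38.p6 and the highest-mean probe set per gene (22180 genes). No sample column was left unused (0).

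Groups were taken from the sample titles and compared with limma 3.58.1 in R 4.3.3 in 1 fit of 9 arrays, with Benjamini-Hochberg adjustment over all genes of a comparison and a threshold of 0.05. The number of arrays limits the precision. Same-numbered arrays of SRG3 cKO and WT had correlated deviations from their group means (0.287, 0.186 and 0.116), so the replicate block is given beside that comparison. The correlations were 0.215, -0.0053 and 0.186 in RORγt KO against WT cells. They were 0.223, -0.0054 and 0.137 in SRG3 cKO against RORγt KO cells. In each of these comparisons 1 of 3 numbers was just below 0, and the numbers were not taken as pairs. The other correlations were similar in size to those of SRG3 cKO and WT, so this choice is not firm. Alternatives covered normalization, dim probe sets, probe set choice, arrays in the fit, array weights, the variance model, the block and leaving out each array. The replicate block in only the 6 arrays compared was chosen after seeing the data.

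All 9 genes are named. Of the 6 gene lists and 7 marker lists, the genes that passed and up to 4 others per gene list, in list order, are named, and other genes are said to be chosen after their values were seen, or are neighbours or receptors of the 9. For each called gene the 3 genes most correlated with it over the 9 arrays are named. The genes and lists were chosen with earlier results of these data known. In simulated data with 200 changed genes among 22180, 97%, 98.5% and 95.5% of changes of 0.5 on the log2 scale were recovered in the SRG3 cKO and RORγt KO comparisons with WT and in the direct comparison, and 2.46%, 4.78% and 5.74% of all calls in these simulations were false. The simulated noise was independent between arrays and genes, and the changed genes were drawn at random. Real arrays share deviations, so these shares do not carry over to them. A gene that was not called is therefore not shown to be unchanged.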

Additional observations from a re-analysis of the deposited data

How the results depend on the processing

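The number of chemokine genes called was 1 in each comparison with WT and 4 in SRG3 cKO against RORγt KO cells. In RORγt KO against WT cells it was 2, with Ccl5 added, after quantile normalization, without dim probe sets or with the replicate block. In fits of only the 6 arrays compared it was 0, 0 and 2 in the 3 comparisons, and with the block in these fits it was 0 in RORγt KO against WT and 2 in SRG3 cKO against RORγt KO cells; these fits have fewer arrays to estimate the spread. Leaving out 1 array gave 0 to 1, 0 to 1 and 2 to 3 chemokine genes.

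Over all genes 116, 230 and 283 were called. With the replicate block these were 195 and 374 in the comparisons with WT, in fits of only the 6 arrays 13, 43 and 142, in those fits with the block 32, 63 and 131, and without 1 array 18 to 87, 45 to 322 and 138 to 261. The block ended no call of a chemokine gene in the fit of all arrays.

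Of 486 recomputed chemokine differences, 439 kept direction and side of the threshold, 32 lost and 3 gained a call, and 12 turned direction, none of them a called difference. Those that turned did so without 1 array, with ranges in SRG3 cKO against WT cells of -0.0639 to 0.00326 for Ccl1, -0.0505 to 0.0251 for Ccl5, -0.0057 to 0.0914 for Cxcl10 and -0.0432 to 0.0137 for Xcl1. In RORγt KO against WT cells they were -0.0243 to 0.0428 for Ccl1, -0.0226 to 0.0639 for Cxcl10 and -0.0224 to 0.10 for Xcl1. In SRG3 cKO against RORγt KO cells they were -0.00797 to 0.0590 for Cxcl10 and -0.11 to 0.00275 for Xcl1. Signal over background was not measured here, which limits what Cxcl3 and Xcl1 can show.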

Other observations

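The genes whose log2 level was most like that of each called chemokine gene over the 9 arrays were listed as a description; the arrays span the 3 genotypes and share 1 normalization. For Ccl3 they were Gabarapl1, an autophagy gene (Pearson's r = 0.975), Gm5424 (0.969) and Olfr641 (0.967). For Ccl4 they were C030037F17Rik (0.974), Gm5424 (0.948) and Syn1 (0.942), so Gm5424 stood in both lists. For Ccl5 they were Adprm (0.972), the chromatin remodeller gene Chd7 (0.971) and the sialyltransferase gene St6gal1 (0.962). For Cxcl3 they were Cd226, an activating receptor gene (0.953), the tetraspanin gene Tspan6 (0.946) and Il12rb1, the receptor subunit that IL-12 and IL-23 share (0.945).

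Ccl3 was 2.35-fold lower in SRG3 cKO than in RORγt KO cells. In the same arrays Tnf was 1.81-fold higher and Il2 1.75-fold higher. Mean levels in SRG3 cKO, RORγt KO and WT cells were 9.24, 10.47 and 10.23 for Ccl3. For Tnf they were 11.08, 10.22 and 11.05, and for Il2 11.18, 10.37 and 11.08. The SRG3 cKO mean was thus the one apart for Ccl3, and the RORγt KO mean for Tnf and Il2. WT array 2 had the lowest WT value of Ccl1, Ccl3, Ccl4, Ccl20, Cxcl3, Cxcl10, Il17a and Il17f and the highest of Ccl5, a pattern chosen after its values were seen.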
